A study of Homo sapiens with 6 samples.

Results

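Mediator is a large protein complex that carries signals from DNA-bound transcription factors to RNA polymerase II. The 33 genes described here encode its subunits and were chosen by gene name and biotype: every protein-coding gene named MED with a number, with or without a final L, together with CCNC, CDK8 and CDK19. They are 33 of 58735 gene rows, of which 19951 are protein-coding. The kinase module holds 7 of them (CCNC, CDK8, CDK19, MED12, MED12L, MED13 and MED13L) and the core complex the other 26. The names alone set the membership, but the group was selected on measured values in 1 respect: the drop of CCNC in the shTRIM15 libraries, the comparison made throughout, was already known. Changes of members between the groups are therefore given as a description, with standard errors and without p-values, except for adjusted p-values where an alternative ended a call.

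RNA was sequenced from Huh7, an established human liver cancer cell line, with a short hairpin RNA against TRIM15 (shTRIM15, 3 libraries) or a control hairpin (shcontrol, 3 libraries). TRIM15 belongs to the tripartite motif proteins, many of which attach ubiquitin to other proteins, and the study set out to profile gene expression after its knockdown. Cells of all 6 libraries were grown in RPMI-1640 with fetal bovine serum, and the library kit was directional. The hairpin sequences, the number of hairpins or clones behind each group, and the origin of the replicates are not stated in the labels. Nothing says that replicates were separate cultures, and their spread may be technical.

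Mediator has a head and a middle module that contact the polymerase, a tail that binds activators, and MED14 as the backbone that joins them. The kinase module attaches reversibly and, while bound, keeps the polymerase from joining the complex. In it cyclin C (CCNC) pairs with either of 2 closely related kinases, CDK8 or CDK19, MED12 activates the pair, and MED13 ties the module to the core. MED12L and MED13L are paralogs that can take the place of MED12 and MED13. The division into head, middle and tail follows common use for the human complex, and the placement of MED27 to MED30 differs between authors.

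Depth was 17332508 to 19556855 reads in the shTRIM15 libraries and 17715210 to 18217903 in the shcontrol libraries. TRIM15 had 3.23, 2.11 and 2.51 FPKM (fragments per kilobase of gene length and per set number of mapped fragments) in the shTRIM15 libraries, against 5.17, 5.09 and 4.88 FPKM in the shcontrol libraries. Its log2 fold change was -0.75 (SE 0.106, limma adjusted p = 0.00416), which is in the direction of the labels. All 8 hepatocyte markers were expressed in both groups, from TTR (6.83 FPKM in shTRIM15 and 7.02 FPKM in shcontrol libraries) to ALB (928 and 899 FPKM). FGB, the fibrinogen beta chain gene, was the 1 of the 8 that was called, and it was lower (233 and 271 FPKM, log2 fold change -0.22). The part of that change in the results was not tested. Of 14 fibroblast, endothelial and immune markers, 10 were under 0.5 FPKM in every library, and PECAM1, CDH5 and PTPRC, which define endothelial and immune cells, were among these. LUM (50.7 FPKM in shTRIM15 and 57.6 in shcontrol), COL1A1 (0.920 and 0.907), CD14 (13.7 and 14.0) and LYZ (3.50 and 3.14) were the exceptions. The summed fibroblast markers, nearly all LUM, were at 50.8 to 53.0 FPKM in shTRIM15 and 57.0 to 60.8 FPKM in shcontrol libraries, and their part in the results was not tested. In bulk RNA a smaller share of expressing cells and less RNA per cell cannot be told apart.

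Of the 33 members, 32 passed the filter of at least 0.5 FPKM in 3 or more libraries and were tested. MED12L did not pass. It had 4, 7 and 6 reads in the shTRIM15 libraries, against 1, 5 and 5 in the shcontrol libraries. That is at most 0.0281 FPKM, and 3 reads, the count that a sample with 0 reads still allows, correspond to 0.0120 to 0.0135 FPKM, so a difference between the groups was not detectable at this depth. The tested members had 142 to 2409 reads per library.

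The levels in the shcontrol libraries spanned a wide range. They are a description too, since the known drop of CCNC rests on its shcontrol level. CCNC was highest, at 22.7 ± 0.631 FPKM (SD, n = 3), and MED17, a central subunit of the head, was lowest of the tested members, at 0.589 ± 0.0566 FPKM. Compared with 11652 tested protein-coding genes, CCNC stood at percentile 82.3 and MED17 at percentile 2.2. The coefficient of variation among the shcontrol libraries was 0.679 to 9.72% over the 32 tested members, with a median of 3.52%, beside a median of 5.69% over all genes tested. In the order of shcontrol levels, the 3 libraries of neighbouring genes did not overlap in 12 of 32 neighbour pairs. CCNC was separate from MED27 below it (20.6 ± 1.24 FPKM), whereas MED27, MED19, MED8, MED29 and MED10, between 18 and 20.6 FPKM on average, each overlapped with the next.

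This order depends on the length by which reads are divided. The deposited gene length was the union of all annotated exons in GENCODE 29 for all 58735 rows. For some members that union is far longer than the mRNA with the longest coding sequence. The union was 16610 bases for MED17, against 2317 for the mRNA with its longest coding sequence, and 37364 against 8717 bases for MED13L. The same measure over the length of that mRNA came to 4.21 ± 0.404 for MED17 and 6.91 ± 0.137 for MED13L in the shcontrol libraries (SD, n = 3), where the deposited values were 0.589 and 1.62 FPKM. MED21, of the middle module, moved from rank 13 to rank 1 (11 FPKM, and 61.2 over an annotated mRNA of 575 bases), and CCNC from rank 1 to rank 2 (52.7 ± 1.47). The mRNA with the longest coding sequence is not always the longest mRNA. The longest annotated 3' untranslated region alone has 2899 bases for MED17 and 1288 bases for MED21, more than the mRNA lengths used for them. Which transcripts the reads came from was not tested, so ranks over mRNA lengths are uncertain. The deposited length is the same in both groups, but it also sets how much the added 1 in log2(FPKM + 1) shrinks a fold change. That shrinkage is strongest for members near or under 1 FPKM such as MED17 and MED13L.

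**Figure D1:**
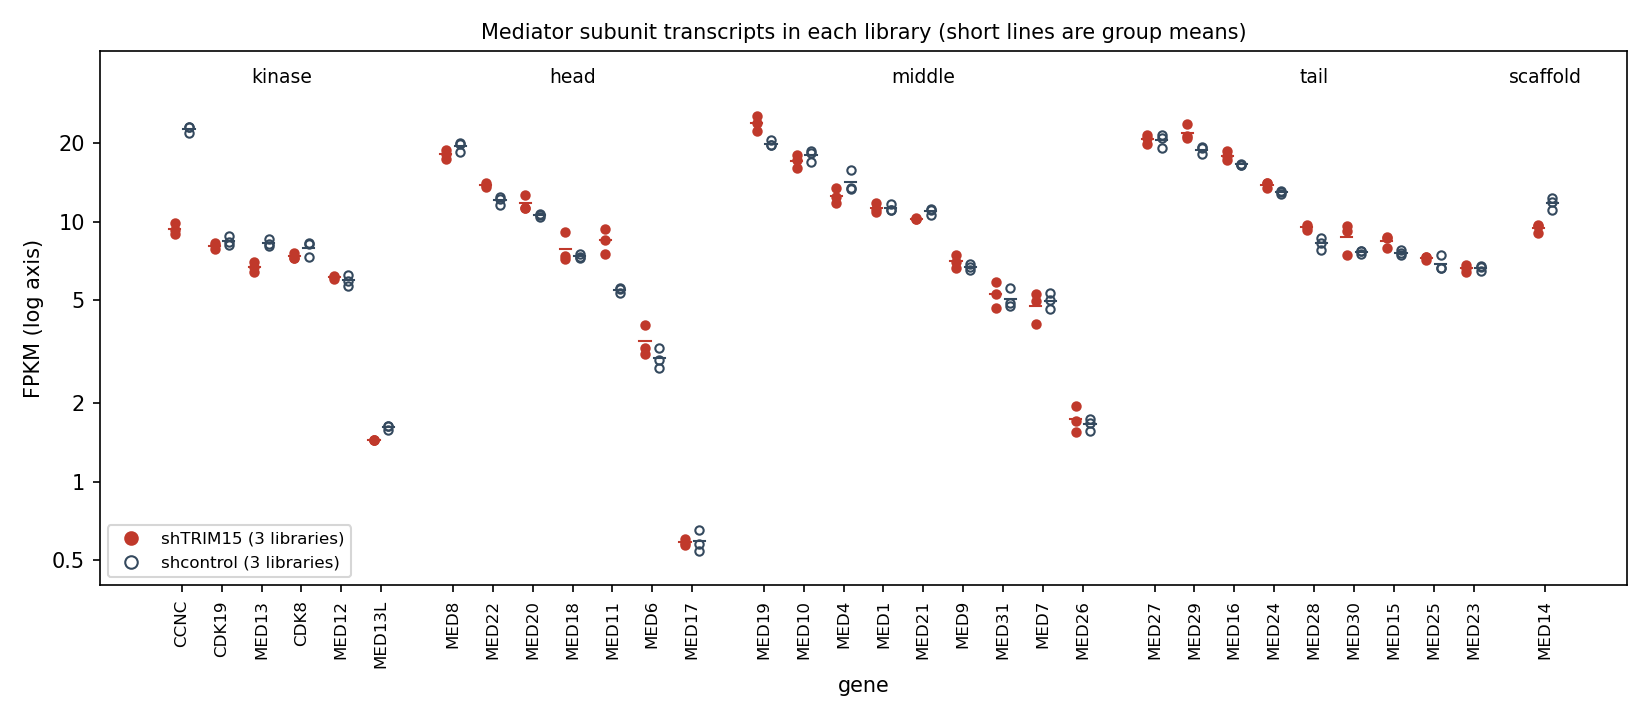
Level of each of the 32 tested Mediator members in each library, in FPKM on a log axis, grouped by module and ordered by the shcontrol mean. Filled points are the 3 shTRIM15 libraries and open points the 3 shcontrol libraries. CCNC, at 8.94 to 9.83 FPKM in shTRIM15 and 21.9 to 23.1 FPKM in shcontrol libraries, is the member with the widest gap between the groups.

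Within the kinase module, the cyclin was far lower in the shTRIM15 libraries and the kinases were close to their shcontrol values. CCNC (ENSG00000112237, chromosome 6, 99542380 to 99568973, minus strand, GRCh38) had 8.94, 9.83 and 9.30 FPKM in the shTRIM15 libraries. It had 23.1, 21.9 and 23.0 FPKM in the shcontrol libraries. Every shTRIM15 library lay below every shcontrol library, and the shTRIM15 mean was 41.3% of the shcontrol mean. The log2 fold change on the log2(FPKM + 1) scale was -1.19 (SE 0.0403). Reads numbered 972, 1120 and 941 in the shTRIM15 libraries, against 2403, 2233 and 2409 in the shcontrol libraries.

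CDK8 had 7.57, 7.27 and 7.23 FPKM in the shTRIM15 libraries, against 7.33, 8.30 and 8.17 FPKM in the shcontrol libraries. CDK19 had 8.12, 8.24 and 7.82 FPKM in the shTRIM15 libraries, against 8.11, 8.76 and 8.34 FPKM in the shcontrol libraries. For both kinases the groups overlapped, and neither passed the threshold, with log2 fold changes of -0.10 (SE 0.050) for CDK8 and -0.05 (SE 0.0394) for CDK19. The share of CDK19 in the sum of both kinases was 51.8 to 53.1% in shTRIM15 and 50.5 to 52.5% in shcontrol libraries, so the pair contributed about equally in each.

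The ratio of CCNC to the sum of CDK8 and CDK19, in FPKM, was 0.570, 0.634 and 0.618 in the shTRIM15 libraries. It was 1.49, 1.29 and 1.39 in the shcontrol libraries. Cyclin transcript per kinase transcript thus averaged 0.607 ± 0.0334 in shTRIM15 and 1.39 ± 0.103 in shcontrol libraries (SD, n = 3), a quotient of 0.436. Over the lengths of the mRNAs with the longest coding sequence the means were 1.2 in shTRIM15 and 2.75 in shcontrol libraries. The quotient was the same. Whether the ratio lies above or below 1 in shTRIM15 libraries depends on that length. Protein was not measured.

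MED13, the link between the module and the core, was the other kinase module member that fell. It had 6.97, 6.67 and 6.38 FPKM in the shTRIM15 libraries, against 8.06, 8.18 and 8.60 FPKM in the shcontrol libraries. The groups did not overlap, and the log2 fold change was -0.27 (SE 0.0430). MED13L had 1.45 FPKM in each shTRIM15 library, against 1.64, 1.58 and 1.64 FPKM in the shcontrol libraries. Its groups did not overlap either, but with -0.10 (SE 0.0568) it did not pass the threshold on the log2(FPKM + 1) scale. That scale understates changes of genes near 1 FPKM, but with 0.1 added in place of 1 MED13L did not pass either, at -0.15. Of the 15 alternatives, limma voom on whole reads was the 1 that called MED13L, at -0.14 (SE 0.0480). Voom called 12.3% of all genes lower, and the limma fit on log2(FPKM + 1) called 10.1% lower.

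MED13L made up 17.2 to 18.5% of the sum of MED13 and MED13L in shTRIM15 and 16.0 to 16.9% in shcontrol libraries. Over mRNA lengths these shares were 42.4 to 44.5% in shTRIM15 and 40.3 to 41.8% in shcontrol libraries. MED12, the activator of the kinase, had 6.03, 6.18 and 6.13 FPKM in the shTRIM15 libraries, against 6.21, 5.67 and 5.93 FPKM in the shcontrol libraries. These overlap, and the log2 fold change was 0.04 (SE 0.0410). MED12L was at most 0.453% of the sum of MED12 and MED12L in shTRIM15 libraries and at most 0.394% in shcontrol libraries.

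**Figure D2:**
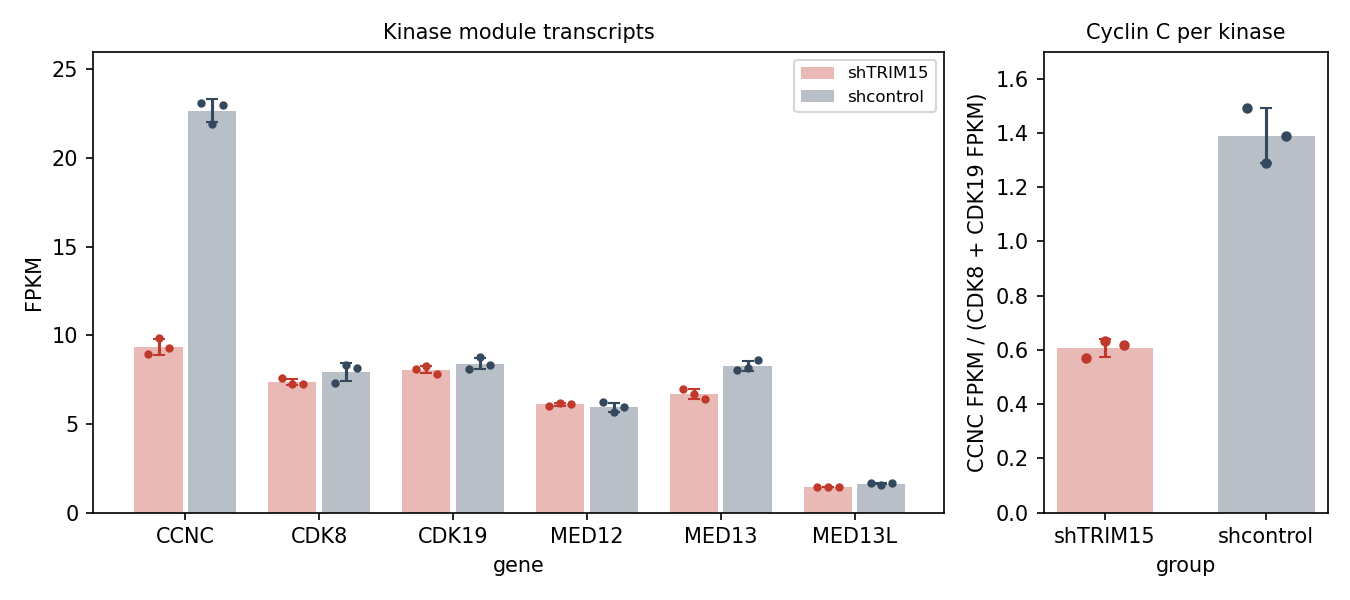
Left, FPKM of the 6 tested kinase module genes in shTRIM15 and shcontrol libraries; right, CCNC divided by the sum of CDK8 and CDK19 in each library. Bars are means, error bars SD over 3 libraries, and points single libraries. CCNC averages 9.36 FPKM in shTRIM15 and 22.7 FPKM in shcontrol libraries, while the CDK8 and CDK19 points of the groups overlap.

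Over all tested members, 3 of 32 were called lower in shTRIM15 (9.38%) and 5 higher (15.6%), at an adjusted p under 0.05 in the fit across 14847 genes. Of all genes tested, 10.1% were called lower and 8.93% higher. The groups did not overlap in 14 members (43.8%), against 37.8% of all genes tested. The median log2 fold change was 0.04 over the members and 0.00 over all genes tested. The change was smaller than 0.1 in either direction in 19 of the 32. The 3 lower members include CCNC, whose drop was known when the group was chosen. No direction of the complex as a whole is read from these counts.

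After rescaling to TPM (each library brought to the same sum of length-scaled values) the members counted 3 lower and 9 higher, where 7.78% and 12.8% of all genes were called in those directions. With voom on whole reads they counted 4 lower and 9 higher, with 12.3% and 15.9% of all genes. Higher genes made up 62.2% of all calls after TPM scaling and 47.0% before it. The genes added on the higher side under both were MED15, MED16, MED20 and MED24. CCNC, MED13 and MED14 were called lower, and MED11, MED19 and MED22 higher, under each of the 15 alternatives of scaling, filter, pseudocount, variance model and left-out library. For CCNC, known beforehand to be lower, this is a description only.

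The scaffold subunit fell. MED14 (chromosome X, 40648306 to 40735858, minus strand) had 9.59, 9.01 and 9.69 FPKM in the shTRIM15 libraries, against 11.1, 11.9 and 12.3 FPKM in the shcontrol libraries. The groups did not overlap, and the shTRIM15 mean was 80.1% of the shcontrol mean (log2 fold change -0.29, SE 0.0454). MED14OS, an antisense gene that shares 459 bases with it, averaged 1.63 FPKM in both groups.

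In the head module, 2 of 7 members rose and none fell in the limma fit, beside 8.93% higher and 10.1% lower over all genes tested. MED11 (chromosome 17, 4731428 to 4733610, plus strand), a small subunit that pairs with Med22 in the yeast head, had 9.37, 7.47 and 8.52 FPKM in the shTRIM15 libraries. It had 5.32, 5.56 and 5.48 FPKM in the shcontrol libraries. The groups were well apart, the shTRIM15 mean was 155% of the shcontrol mean, and the log2 fold change was 0.55 (SE 0.0723), the highest of the members. On 261, 218 and 221 reads in shTRIM15 and 142, 145 and 147 reads in shcontrol libraries, voom gave 0.64 (SE 0.115). The last 85 bases of its span are shared with CXCL16 on the opposite strand (43.0 FPKM in shTRIM15 and 41.4 FPKM in shcontrol libraries), and the sources used here do not say whether counting used strand.

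MED22, the head partner of MED11, had 14.0, 13.6 and 13.8 FPKM in the shTRIM15 libraries, against 12.4, 11.6 and 12.2 FPKM in the shcontrol libraries. The groups did not overlap, with a log2 fold change of 0.18 (SE 0.0327). The other head members were not called. MED8 had 17.4, 18.8 and 18.2 FPKM in the shTRIM15 libraries, against 20, 18.5 and 19.8 FPKM in the shcontrol libraries, with overlap and a log2 fold change of -0.10. MED17 was at 0.00, MED18 at 0.08, MED20 at 0.14 and MED6 at 0.16. MED18 and MED20, which form a movable jaw in the yeast complex, were each highest in shTRIM15 replicate 1 (9.11 and 12.6 FPKM).

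In the middle module, MED19 rose and the other 8 members were not called, beside the same shares over all genes. MED19, which in yeast helps to bind the polymerase, had 25.4, 22.3 and 24.0 FPKM in the shTRIM15 libraries, against 20.5, 19.7 and 19.6 FPKM in the shcontrol libraries. The groups did not overlap, with a log2 fold change of 0.25 (SE 0.0477). MED10 had 16.0, 18 and 17.3 FPKM in the shTRIM15 libraries, against 17.0, 18.3 and 18.7 FPKM in the shcontrol libraries, and the groups overlapped. MED1, the main contact of nuclear receptors, was at 11.3 ± 0.434 FPKM in shTRIM15 and 11.3 ± 0.324 FPKM in shcontrol libraries (SD, n = 3). The remaining log2 fold changes ran from -0.16 (MED4, SE 0.0720) through -0.09 (MED21), -0.06 (MED7), 0.04 (MED26, a docking point for elongation factors) and 0.05 (MED31) to 0.06 (MED9). MED31 shares 1227 bases with TXNDC17 on the opposite strand, which averaged 13.0 FPKM in shTRIM15 and 13.1 FPKM in shcontrol libraries, above MED31 itself (5.26 and 5.04 FPKM).

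In the tail, 2 of 9 members were called higher, beside 8.93% of all genes tested, and both calls ended under several alternatives. With all 6 libraries, MED29 was not called without the filter (limma adjusted p = 0.083) or the variance trend (0.0618), nor was MED28 (0.0709 and 0.0524). MED29, the human counterpart of the fly gene intersex, had 23.6, 21.0 and 21.3 FPKM in the shTRIM15 libraries, against 19.4, 18.1 and 19.2 FPKM in the shcontrol libraries. The groups did not overlap, with a log2 fold change of 0.21 (SE 0.0492). Its call ended without shTRIM15 replicate 1 or 3 (0.16 and 0.22) and without shcontrol replicate 2 or 3 (0.18 and 0.22), with limma adjusted p values of 0.0516 to 0.0842. MED28, also known as a partner of the cytoskeletal protein merlin, had 9.66, 9.56 and 9.25 FPKM in the shTRIM15 libraries, against 7.76, 8.67 and 8.30 FPKM in the shcontrol libraries. Its log2 fold change was 0.18 (SE 0.0444), and its call ended without shTRIM15 replicate 1, 2 or 3 and without shcontrol replicate 1 or 3 (0.15 to 0.20), each left out in turn, with limma adjusted p values of 0.0601 to 0.0921.

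The other 7 tail members were not called. MED27 had 21.5, 19.8 and 21.0 FPKM in the shTRIM15 libraries, against 21.5, 21.0 and 19.2 FPKM in the shcontrol libraries, with overlap. MED16 had 17.2, 17.8 and 18.6 FPKM in the shTRIM15 libraries, against 16.5, 16.5 and 16.7 FPKM in the shcontrol libraries, without overlap and with a log2 fold change of 0.10 (SE 0.0334). MED15, a partner of the sterol factors SREBP, was at 0.13 (SE 0.0432), and passed the threshold without shTRIM15 replicate 3. MED30 was at 0.17 (SE 0.0823), with a low value in shTRIM15 replicate 2 (7.45 FPKM, beside 9.17 and 9.61), and passed without that library. MED24 was at 0.08, MED25 at 0.07 and MED23, the partner of the growth-signal factor ELK1, at 0.00.

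**Figure D3:**
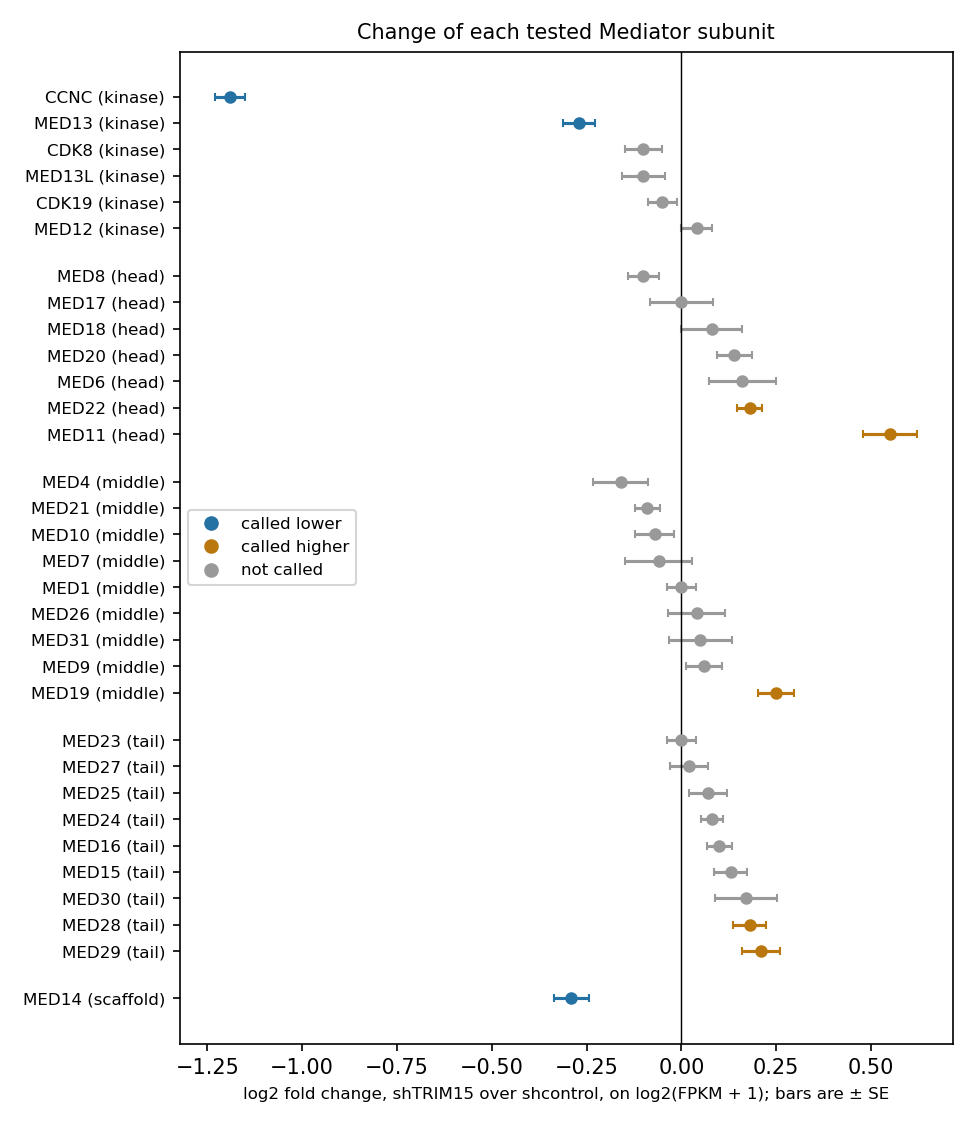
Log2 fold change of each tested member, shTRIM15 over shcontrol, on the log2(FPKM + 1) scale, grouped by module, with bars of ± SE. Colours mark members called lower, called higher or not called. CCNC lies at -1.19, and the other 31 members lie between -0.29 (MED14) and 0.55 (MED11).

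The members lie on 15 chromosomes. CCNC, CDK19, MED20 and MED23 are on chromosome 6, which also carries TRIM15, and of these CCNC was the 1 that was called. Pseudogene copies could take reads from their parent genes: the table has 20 pseudogene rows named after members, 16 of them at 0 in every library, and the rest reached at most 0.854 FPKM and 8 reads.

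The 3' untranslated regions (3' UTRs) of the members were compared with a pattern seen across all genes. Each 7-base word present in at least 100 of 11523 tested protein-coding genes was related to the log2 fold change, adjusting for the length and GC share of the 3' UTR. The words were picked on the same comparison that is being described, so what follows is a description. The word most strongly tied to lower values was ATGAATA, found in 17.2% of these genes, with a coefficient of -0.10 on the log2 scale. The strongest word that shares no run of 5 bases with it was GGAAATA (18.8% of genes, -0.05). The word most strongly tied to higher values was TCGGAGA (2.1% of genes, 0.09). Of all genes with ATGAATA, 30.4% were called lower and 2.8% higher, and of all genes with GGAAATA, 21.6% and 5.0%. Of all genes with neither ATGAATA nor GGAAATA, 6.9% were lower and 13.6% higher. Unlike the coefficients, shares of genes by word, here and below, are not adjusted for 3' UTR length or GC share.

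All 3 members that fell hold at least 1 of the lower words in their longest annotated 3' UTR, and MED28 is the called higher member that holds them too. Of all genes called lower in the scan, 60.0% hold at least 1 of the 2 words, against 29.7% of all genes in it. CCNC has ATGAATA and GGAAATA once each, near the start of a 3' UTR of 1175 bases, MED13 has ATGAATA at 2 places and GGAAATA at 1, and MED14 has GGAAATA once. The sites are printed 5′ to 3′ as in the transcript, from GENCODE 29 on GRCh38, with the word in capitals and 10 bases on each side.
CCNC, chr6:99543451-99543477, minus strand: acaaatgaaaATGAATAgcttgtttct
CCNC, chr6:99543506-99543532, minus strand: tggaccacttGGAAATAaaccattgga
MED13, chr17:61946138-61946164, minus strand: gtcatgttaaATGAATAttaaaagcat
MED13, chr17:61943673-61943699, minus strand: ttaacactgtATGAATAaatttctgta
MED13, chr17:61945385-61945411, minus strand: atttaggcatGGAAATAttattatgaa
MED14, chrX:40651567-40651593, minus strand: acatttcaaaGGAAATAaatcagtgtc

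Of 8 annotated coding transcripts of CCNC with a 3' UTR, 4 hold ATGAATA and 6 hold GGAAATA. For MED13 each word is in 1 of 2 such transcripts, and for MED14 GGAAATA is in 1 of 3. Without the hairpin sequences the words could not be set against them, and the part of these words in the change of any member was not tested.

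The words were also present in members that were not called lower in the limma fit on log2(FPKM + 1). MED28, with the longest 3' UTR among the members (10307 bases), has ATGAATA at 2 places, GGAAATA at 1 and TCGGAGA at 1, and was called higher. MED23 and MED17 hold ATGAATA, in 2 of 5 and 1 of 3 annotated coding transcripts, and had log2 fold changes of 0.00. Which of these transcripts the reads came from was not tested. MED13L, MED31 and MED20 hold GGAAATA and were at -0.10, 0.05 and 0.14, and voom called MED13L lower. The sites of MED28, MED23 and MED17 are shown for comparison.
MED28, chr4:17625661-17625687, plus strand: ttactgggtgATGAATAatcctctaag
MED28, chr4:17628542-17628568, plus strand: gttctctgtgATGAATAgacccaactt
MED28, chr4:17633638-17633664, plus strand: ttatctacagGGAAATAgaataagggc
MED28, chr4:17633976-17634002, plus strand: caaaattgtaTCGGAGAagaagcaaca
MED23, chr6:131586743-131586769, minus strand: agtctgctgaATGAATAaaccgtgtga
MED17, chr11:93814929-93814955, plus strand: ggtattgctgATGAATAaaaacagggg

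Among the 23 members with neither lower word in the longest 3' UTR, 0 were called lower by limma and 4 higher (MED11, MED19, MED22 and MED29). That is 0.0% and 17.4%, beside 6.9% and 13.6% of all genes with neither word, and nothing particular to the members is read from it. Of these 23, MED1 and MED26 hold GGAAATA in another annotated transcript, 1 of 2 in each. TCGGAGA was absent from the longest 3' UTR of these 4, and was present in 1 of 3 annotated coding transcripts of MED11. The kinase genes CDK8 and CDK19 hold none of the 3 words in that region.

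**Figure D4:**
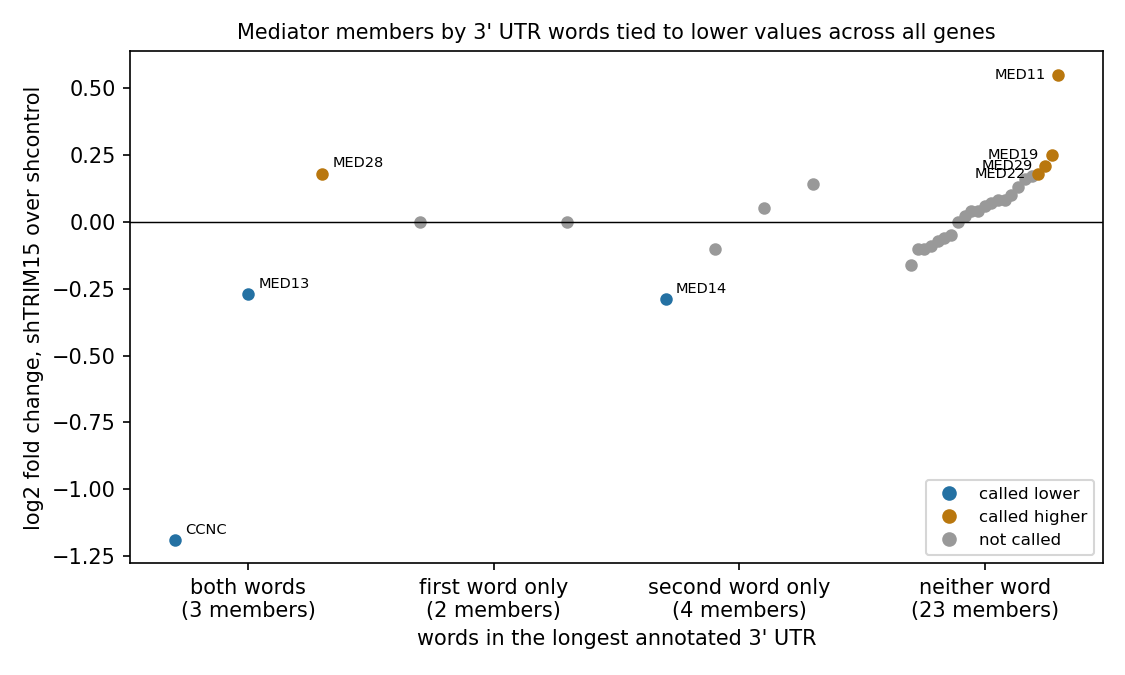
Log2 fold change of the 32 tested members, shTRIM15 over shcontrol, by which of ATGAATA (first word) and GGAAATA (second word) their longest annotated 3' UTR holds. Each point is 1 member, placed within a column in order of its value, with called members named. The 3 members called lower lie in the columns with a word, and 4 of the 5 called higher in the column with neither. That last column holds 71.9% of the members, beside 70.3% of all genes in the word scan.

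Promoters of 25 member genes matched the RefSeq promoter table (GRCh38.p14, a short window around each start), with 30 promoters in all. On either strand, GGGCGG was in 60.0% of them, against 45% of all 35116 promoters. CCAAT was in 36.7%, against 34.6%, and TATAAA in 6.7%, against 11.5%. The cAMP response element and the NRF1 motif each occurred once, both at MED18. Among the called members with a matched promoter, CCNC, MED19 and MED29 hold CCAAT, and MED19 and MED29 hold GGGCGG. Of all 25 matched member genes, called or not, 10 hold CCAAT and 16 hold GGGCGG. Nothing particular to the called members is read from this.

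Genes that work beside Mediator were counted in 4 lists, written with earlier results of these data known. Beside each count of the main fit stand its shares over all genes tested, 8.93% higher and 10.1% lower. For counts from other fits the shares differ. TPM scaling called 12.8% of all genes higher and 7.78% lower, and voom 15.9% and 12.3%. With 1 library left out, genes called higher ran from 790 of 14546 (without shTRIM15 replicate 3) to 1128 of 14537 (without shcontrol replicate 1). Nothing particular to a list is read from these counts. Of 12 RNA polymerase II subunits, limma called 3 higher and 0 lower (median log2 fold change 0.04). These were POLR2D (8.48 ± 0.0903 FPKM in shTRIM15 and 6.40 ± 0.357 in shcontrol libraries; 0.36, SE 0.0430), POLR2C (0.27) and POLR2E (0.16). Of 28 tested general transcription factors, 5 were higher and 3 lower, with a median of 0.05. The number higher was 1 without shTRIM15 replicate 2, 2 without shTRIM15 replicate 3 or shcontrol replicate 3, 3 without shcontrol replicate 2 and 9 with voom. The lower genes were TFIID subunits TAF13 (13.8 ± 0.377 FPKM in shTRIM15 and 20.5 ± 0.789 in shcontrol libraries; -0.53, SE 0.0364) and TAF12 (-0.44), and the TFIIA subunit GTF2A2 (-0.21). TAF10 (0.27), TAF11 (0.25) and the TFIIH helicase gene ERCC2 (0.17) had the highest log2 fold changes among the called genes. TAF10 was not called without shTRIM15 replicate 2 (adjusted p = 0.0530), and ERCC2 not in 7 of 15 alternatives (up to 0.118). The other called genes, TAF7 and GTF2F1, were not called in 7 and 9 of the 15.

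Of 16 other transcription kinases, cyclins and their regulators, limma called 1 higher and 0 lower (median 0.00). The number higher was 3 without shTRIM15 replicate 1 and 4 with TPM scaling or voom, and voom called 1 lower. The 1 gene that limma called higher was CDK9, the kinase that releases paused polymerase. CDK9 was at 21.6 ± 0.605 FPKM in shTRIM15 and 17.5 ± 1.35 FPKM in shcontrol libraries (SD, n = 3), with a log2 fold change of 0.29 (SE 0.0542). Of 24 tested partners and regulators, 4 were higher and 5 lower, with a median of -0.015. The number higher was 2 without shTRIM15 replicate 2 or shcontrol replicate 3, 7 with TPM scaling and 8 with voom. The thyroid hormone receptor gene THRB fell to 3.35 ± 0.0834 FPKM in shTRIM15, against 4.90 ± 0.169 FPKM in shcontrol libraries (-0.44, SE 0.0431). The cohesin genes SMC1A (-0.23) and STAG2 (-0.21) were lower as well, while ELK1 (0.33) and the sterol factor gene SREBF1 (0.17) were higher. The bile acid receptor gene NR1H4 was lower at -0.32 (SE 0.0859), a call that was absent in 8 of 15 alternatives (limma adjusted p up to 0.125). MAU2 and SREBF2, also higher, were not called in 6 and 7 of the 15.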

How the data were processed

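Per the labels' protocols, RNA of Huh7 cells was made into directional libraries. The authors deposited FPKM values per gene, 1 column per library, with the gene length. Aligner, counter and use of strand are not given in the sources used here. The submitters' processing notes name the mouse build mm10, but all 58735 identifiers, starts, ends and strands equal GENCODE 29 (human, GRCh38), so coordinates are on GRCh38. Multiplying FPKM by gene length recovered whole reads for 100% of values, within 0.01 of a read. The library size implied by the FPKM differed from the sum of recovered reads by 1.037 to 1.272% in shTRIM15 libraries. In shcontrol libraries it differed by -0.37 to -0.359%. The part of this offset in the results was not tested. Of models for counts, voom was fitted to the recovered reads, and the other planned count models were not run.

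The fit was limma 3.58.1 (R 4.3.3) with a variance trend on log2(FPKM + 1) for 14847 genes with at least 0.5 FPKM in 3 or more libraries, shTRIM15 against shcontrol, two-sided, adjusted over all genes, threshold 0.05. It and the word scan were run on simulated data with known changes put in, as a check of the code. That check does not show how many calls or words in these data are false. Alternatives were pseudocounts of 0.1 and 0.5, no filter or 1 FPKM, TPM and quantile scaling, no variance trend, voom on whole reads, a replicate block and each library left out. Limits of 0 reads cover counting error only.

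Members, lists and tests were chosen with earlier results of these data known. Named with values per library were the kinase module, every called member and the 4 highest other members, and from each related list at most 6 called genes by size of change.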

Additional observations from a re-analysis of the deposited data

How the results depend on the processing

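The number of members called lower was 3 or 4 under all 15 alternatives, and 3 with each library left out. The number called higher (5) was 3 with no filter, 3 without a variance trend, 9 after TPM scaling and 9 with voom on whole reads, and 3 to 5 with 1 library left out (3 without shTRIM15 replicate 1 or shcontrol replicate 3). The median log2 fold change of the members (0.037) was 0.073 after TPM scaling, 0.072 with voom and 0.011 to 0.042 with 1 library left out, and TPM scaling moved the median of all genes to 0.031. The log2 fold change of CCNC was -1.27 to -1.16 over the 15 alternatives (-1.23 to -1.16 with 1 library left out), and the quotient of CCNC per kinase, shTRIM15 over shcontrol, 0.421 to 0.453 over its 8. The coefficient of ATGAATA was -0.128 to -0.101, of GGAAATA -0.064 to -0.049 and of TCGGAGA 0.087 to 0.107. These scans, and levels over mRNA lengths, were added after seeing the data. Same-numbered libraries deviated from their group means with correlations of 0.009 to 0.013, beside -0.014 to 0.002 for libraries of different numbers. Any deviation shared by number was small, and these values do not show whether libraries were paired by design. With replicate number as a block, the members counted 3 lower and 4 higher, MED28 losing its call (limma adjusted p = 0.0689), and all genes 1030 lower and 883 higher, against 1498 and 1326 without the block. With no filter the fit counted 1004 lower and 884 higher of 32030 genes tested, where the main fit tested 14847. With 1 library left out it counted as few as 981 lower and 790 higher of 14546 (without shTRIM15 replicate 3). With voom all genes counted 1822 lower and 2360 higher. General transcription factors called higher (5) were 2 with no filter, without the variance trend or with the replicate block, partners and regulators called higher (4) were 2 with the block, and other kinases and cyclins called higher (1) were 3 with a filter of 1 FPKM. The planned edgeR and DESeq2 fits were not run. The filter of 0.5 FPKM kept MED12L, at most 0.0281 FPKM, from being tested. Members with few reads have larger errors in voom (SE 0.119 for MED26 and 0.115 for MED11, against 0.0399 for MED22). The cause of these differences was not tested.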
